A study of Homo sapiens with 9 samples.

Results

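Kinesins are motor proteins that walk along microtubules on the energy of ATP. One set of them builds and drives the mitotic spindle, lines up chromosomes and closes the cell at cytokinesis, and its genes are transcribed mostly in G2 and mitosis. Another set carries vesicles, endosomes, mitochondria and ciliary cargo through the cytoplasm at all stages of the cell cycle, and the remaining members serve cilia, Hedgehog signalling or microtubule ends, or have no settled role. Their RNA was read here in cells exposed to drugs that disturb pre-mRNA splicing. The members were all features of the deposited table whose symbol is KIF or KIFC followed by a number and, in some, a letter from A to C, which gave 39 of 46846 features. They were divided by textbook role into 12 mitotic kinesins, 16 transport kinesins and 11 others. KIF15 and KIFC1 on the mitotic side and KIF5C on the transport side were not analysed here.

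The cells were MDA-MB-231, a human breast cancer line of the triple-negative type, and polyadenylated RNA was sequenced in 9 libraries, 3 per group. The groups were cells given 3.3 µM indisulam for 12 h, cells given 10 nM pladienolide B for 6 h, and control cells given DMSO, for which the label gives 12 h. Indisulam joins the splicing factor RBM39 to the ubiquitin ligase adaptor DCAF15, and RBM39 is then degraded, whereas pladienolide B binds the SF3b part of the U2 snRNP, which selects branch sites. All groups came from the same line with no genetic change stated, and drug and time differ together, so that they cannot be told apart for pladienolide B. Libraries of a group are labelled as replicas, and no label says whether each had its own culture. The p-values therefore reflect variation among these particular libraries, which may be technical.

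A library held 59312100 to 83910831 reads, and the values are normalised read counts, that is, reads divided by a size factor for each library. The 3 reads that a count of 0 allows correspond to 2.48 to 3.87 on that scale, for counting error only. The normalised totals differed between groups: the mean total of the pladienolide B libraries was 1.39 times, and that of the indisulam libraries 1.04 times, the DMSO mean. Of the markers of this line, VIM, CD44, AXL and MSN were high (lowest value 41200) and ESR1 and PGR were at 0 to 2.04, but SPARC was low (28.4 to 65.9). Of the other genes listed as low in this line, CDH1 stood at 54.7 to 117, EPCAM at 961 to 1900 and ERBB2 at 5100 to 5980. Of the leukocyte genes CD3E was at 0 to 3.66, PTPRC at 2.09 to 26.1 and CSF1R at 102 to 295. These are bulk samples, in which fewer cells in mitosis and less RNA per cell cannot be told apart.

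Promoters of cell-cycle genes often carry the cell cycle genes homology region (CHR), the element bound by the DREAM and MuvB complexes, downstream of a CCAAT box, which binds NF-Y. The windows below show mitotic promoters with letters of both elements and 2 transport promoters. Also shown are the mitotic promoters of KIF20A (none of the CHR letters searched for) and KIF2C (letters of neither). They run from 100 bases before to 10 bases after the RefSeq transcription start (build GRCh38.p14), read 5′ to 3′ on the gene's strand, with CHR letters (TTTGAA or TTCGAA, or their reverse complements) and CCAAT boxes (CCAAT or ATTGG) in capitals.
KIF23 promoter, chr15:69414249-69414358, plus strand: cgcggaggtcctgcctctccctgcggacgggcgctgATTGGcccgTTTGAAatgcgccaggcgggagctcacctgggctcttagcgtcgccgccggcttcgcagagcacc
KIF18A promoter, chr11:28108147-28108256, minus strand: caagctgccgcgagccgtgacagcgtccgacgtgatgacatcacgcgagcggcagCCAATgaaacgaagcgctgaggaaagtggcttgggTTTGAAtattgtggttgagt
KIF14 promoter, chr1:200620742-200620851, minus strand: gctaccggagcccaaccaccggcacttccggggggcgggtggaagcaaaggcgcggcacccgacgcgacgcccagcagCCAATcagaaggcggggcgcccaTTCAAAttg
KIF11 promoter, chr10:92593030-92593139, plus strand: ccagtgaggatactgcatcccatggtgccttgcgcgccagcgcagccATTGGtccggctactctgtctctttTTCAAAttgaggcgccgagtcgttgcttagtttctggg
KIF4A promoter, chrX:70290004-70290113, plus strand: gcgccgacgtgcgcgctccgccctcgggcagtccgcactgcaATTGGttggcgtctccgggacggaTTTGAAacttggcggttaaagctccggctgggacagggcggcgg
KIF4B promoter, chr5:155013655-155013764, plus strand: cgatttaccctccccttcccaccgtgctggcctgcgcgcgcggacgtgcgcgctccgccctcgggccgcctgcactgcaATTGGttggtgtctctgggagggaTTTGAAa
KIF20A promoter, chr5:138179012-138179121, plus strand: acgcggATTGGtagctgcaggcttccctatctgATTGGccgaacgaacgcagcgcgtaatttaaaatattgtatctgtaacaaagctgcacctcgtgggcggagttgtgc
KIF2C promoter, chr1:44739737-44739846, plus strand: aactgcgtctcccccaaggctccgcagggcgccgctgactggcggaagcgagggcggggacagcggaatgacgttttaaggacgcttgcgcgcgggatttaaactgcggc
KIF1C promoter, chr17:4997850-4997959, plus strand: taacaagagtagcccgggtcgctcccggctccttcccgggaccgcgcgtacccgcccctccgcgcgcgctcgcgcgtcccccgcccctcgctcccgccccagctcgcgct
KIF5B promoter, chr10:32056416-32056525, minus strand: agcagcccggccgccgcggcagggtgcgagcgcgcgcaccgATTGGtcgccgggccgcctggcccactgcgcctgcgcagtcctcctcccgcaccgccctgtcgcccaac

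RefSeq promoters were matched for 31 of the 39 members, each read from 250 bases before to 50 bases after its start. Both motifs, on either strand, occurred in 9 of 12 mitotic promoters (KIF11, KIF14, KIF18A, KIF18B, KIF20B, KIF22, KIF23, KIF4A and KIF4B). They occurred together in 1 of 11 transport promoters (KIF5B), in 1 of 8 other promoters (KIF24) and in 7.85% of the promoters of 27305 genes. A CHR match, with or without CCAAT, was found in 19.5% and a CCAAT match, with or without CHR, in 39.7% of all these genes. In 8 of the 9 mitotic promoters the CCAAT box nearest upstream lay 9 to 39 bases before the CHR, counted between first bases, and in KIF20B it lay 122 and 128 bases before the 2 CHR matches. None of these CHR matches in the 9 mitotic promoters overlapped its nearest upstream CCAAT box. The KIF5B promoter has the order turned round, with its CHR match farther upstream than its CCAAT box and outside the window printed. KIF20A carried CCAAT boxes without these CHR letters, and KIF2C carried neither, which says only that these letters are not in this window. Only TTTGAA and TTCGAA were searched as CHR letters, so other forms of the element could have been missed.

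**Figure D1:**
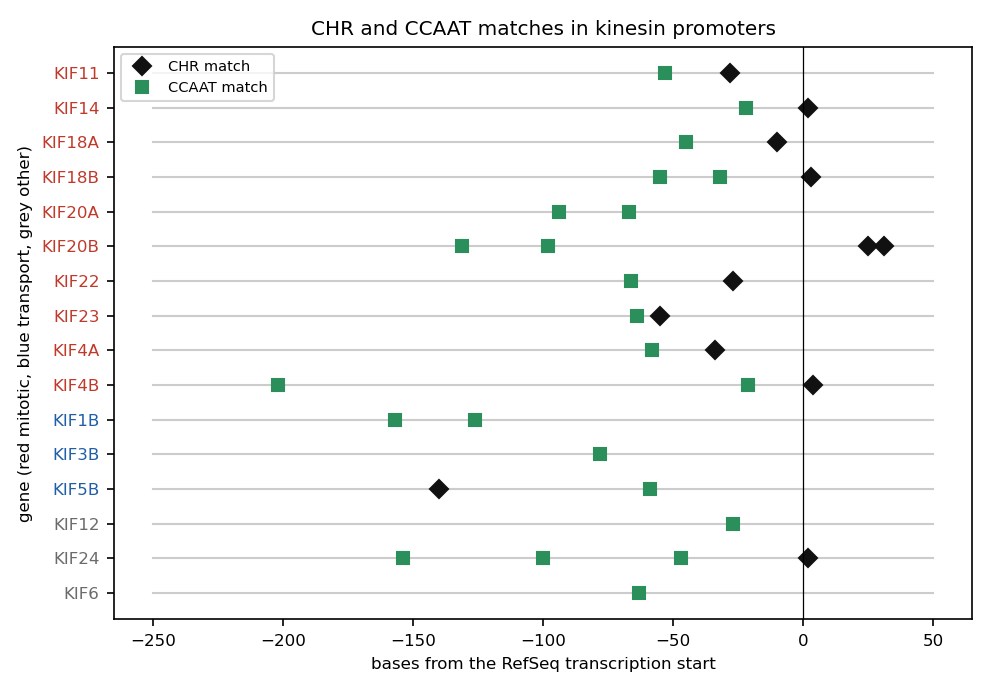
First base of each CHR match (black diamonds) and CCAAT match (green squares) in bases from the RefSeq transcription start, for the kinesin promoters that hold at least 1 of them; gene names are red for mitotic, blue for transport and grey for other kinesins. Both motifs sit close together before or at the start in 8 of 12 mitotic promoters, at 9 to 39 bases.

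Of the 39 members, 32 had a mean of at least 10 over the 9 libraries and were tested: 11 mitotic, 14 transport and 7 other kinesins, within a fit over 16846 features. The 7 below that level were KIF2B, KIF19 and KIF26A, with no read in any library, and KIF1A, KIF5A, KIF6 and KIF12, with values of 0 to 8.36. KIF1A and KIF5A are motors of neurons. All 32 tested members passed on their mean over all libraries.

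Per kilobase of exonic sequence in GENCODE v29, a scale on which levels of different genes can be compared, the mitotic genes were 4 of the 5 highest kinesins of DMSO cells. KIF2C stood at 4918 ± 155 normalised reads per kb, KIF20A at 4175 ± 458, KIF23 at 3468 ± 72.5 and KIF22 at 2808 ± 169 (SD, n = 3). KIF1C, at 3434 ± 179 per kb, was the only transport kinesin among those 5, and its level did not differ from that of KIF23 beyond their spread. KIFC3 followed at 1754 ± 38.1 and KIF4A at 1654 ± 62.7 per kb, while KIF5B, the conventional kinesin heavy chain found in most cells, had 819.6 ± 85.9.

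Indisulam changed 8 of 32 tested kinesins, in both directions and with members of each class, a share near that of all tested features. Of these 8 calls, 4 were lost under some alternative settings (other scalings, tools or omitted libraries). How the calls were split between the classes was not tested. At an adjusted p under 0.05 in limma, 3 of 32 tested members rose and 5 fell, and 24 did not pass. Over all tested features 14.5% rose and 12.4% fell, and 26.9% changed in either direction, so that 8 of 32 members is near the background. The 3 indisulam values lay wholly above the 3 DMSO values in 5 members and wholly below them in 10, beside 27.4% and 21% of all features. Among mitotic kinesins 1 of 11 rose and 3 fell (median log2 change -0.013), among transport kinesins 1 of 14 rose and 0 fell (median -0.05), and among the others 1 of 7 rose and 2 fell (median 0.05), beside a median of 0.047 over all features. At an unadjusted p under 0.05 in limma, or with edgeR or DESeq2, 0 transport kinesins fell as well, and without DMSO replicate 1 only KIFC2 did (adjusted p = 0.0255).

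KIF23 (chr15:69414304-69448427, hg38), the motor subunit of centralspindlin that bundles the midzone at cytokinesis, had 17100.1, 16592 and 17111 normalised reads in indisulam cells, against 13037, 12797 and 13342 in DMSO cells. All indisulam libraries lay above all DMSO libraries (log2 fold change 0.38 ± 0.082 SE, adjusted p = 0.00441), and the call held under all 19 alternative settings. KIF20A (chr5:138179112-138187723), which brings the chromosomal passenger complex to the same midzone, went the other way: it had 9281, 8543 and 7971 in indisulam cells and 16169, 13816 and 13172 in DMSO cells. The groups were separate (log2 fold change -0.74 ± 0.092 SE, adjusted p = 8.68e-05), so a pair of midzone motors changed in opposite directions. KIF23-AS1, which shares 726 bases with KIF23, showed log2 0.805 ± 0.21 (SE) with indisulam and -0.73 ± 0.21 with pladienolide B against DMSO.

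KIF2C (chr1:44739818-44767767), the kinesin-13 that takes apart microtubule ends at kinetochores, had 12115, 11764 and 11423 in indisulam cells and 17029, 16192 and 16085 in DMSO cells. It was lower in every indisulam library (log2 fold change -0.48 ± 0.065 SE, adjusted p = 0.000151). KIF20B (chr10:89701590-89774943), a motor of late cytokinesis, had 5950.1, 5856 and 5697 in indisulam cells and 7838, 7597 and 9167 in DMSO cells. These groups did not overlap either (log2 fold change -0.49 ± 0.16 SE, adjusted p = 0.0375), but the call was lost in 8 of 19 alternatives, among them each omission of 1 indisulam or DMSO library.

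The kinesin with the largest fall, and the only one at least 2-fold lower (1.47% of all features were), was KIF2A (chr5:62306206-62391025), a kinesin-13 that shortens microtubules at spindle poles and in neurites. It had 1656, 1917 and 1634 in indisulam cells and 3563, 3404 and 3599 in DMSO cells. The indisulam mean was 49.3% of the DMSO mean (log2 fold change -1.02 ± 0.089 SE, adjusted p = 6.26e-06), and the ranges were far apart. DIMT1, which shares 3772 bases with KIF2A, showed log2 -1.03 ± 0.12 (SE, adjusted p = 6.33e-05) in the same comparison. The strand setting of the counting is not given in the sources used here, so reads of genes that overlap may not be told apart.

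KIF27 (chr9:83834099-83921432), a relative of KIF7 linked to motile cilia, had 667, 649 and 623 in indisulam cells and 387, 475 and 398 in DMSO cells. It was higher in all indisulam libraries (log2 fold change 0.62 ± 0.16 SE, adjusted p = 0.0125), and without DMSO replicate 1 the adjusted p was 0.0506. KIF7 (chr15:89627976-89655467), which regulates Hedgehog signalling at the tip of the primary cilium, had 465, 428 and 497 in indisulam cells and 643, 607 and 742 in DMSO cells. It was lower in all indisulam libraries (log2 fold change -0.52 ± 0.16 SE, adjusted p = 0.0273) and lost the call in 4 of the omissions of 1 library, so these relatives also moved in opposite directions.

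KIF13A (chr6:17759126-17987635), which moves recycling endosomes, was the only transport kinesin called. Its values were 6780.0, 6358 and 6603 in indisulam cells and 5921, 5947 and 5659 in DMSO cells. The groups did not overlap, the difference was small (log2 fold change 0.17 ± 0.058 SE, adjusted p = 0.0422), and it lost the call in 11 of 19 alternatives, among them TMM scaling (adjusted p = 0.134) and edgeR (0.122).

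Of the members that did not pass with indisulam, KIF18A, a kinesin-8 that damps chromosome movements at metaphase, had 6316, 5083 and 5597 in indisulam cells and 4399, 4256 and 4753 in DMSO cells. Its groups did not overlap (log2 fold change 0.34 ± 0.16 SE, adjusted p = 0.136), and it passed when only indisulam and DMSO libraries were fitted (adjusted p = 0.00332). It also passed without pladienolide B replicate 2 (adjusted p = 0.00537), a library that enters this test only through the shared estimate of spread. KIF11, the Eg5 motor that pushes spindle poles apart, had 5238, 5004 and 4933 in indisulam cells and 5725, 5203 and 5546 in DMSO cells, ranges that overlapped (log2 -0.12, adjusted p = 0.549). KIF5B (log2 -0.043, adjusted p = 0.85) and the ciliary kinesin-2 subunit KIF3A (log2 -0.21, adjusted p = 0.344) did not pass either.

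Pladienolide B lowered most kinesins of every class. Of 32 tested members 24 fell, 3 rose and 5 did not pass, and 16 of the 24 fell at least 2-fold. Over all tested features 35.5% fell and 34.3% rose (69.8% in either direction), and 17.9% fell at least 2-fold. The pladienolide B values lay wholly below the DMSO values in 24 members and wholly above them in 3, beside 36.3% and 35.5% of all features. Among mitotic kinesins 9 of 11 fell in limma, 9 in DESeq2 and 10 in edgeR, and the median log2 change was -1.0. In this class 0 rose by any of the 3 tools or at an unadjusted p under 0.05. Among transport kinesins 10 of 14 fell and 2 rose (median -0.78), and among the others 5 of 7 fell and 1 rose (median -1.06), beside a median of -0.011 over all features.

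The counts were also taken on other scales. When each library was set to the same total, the median of all tested features moved by -0.47, 2733 features rose and 9086 fell (5776 and 5976 on the deposited scale), and 28 kinesins fell and 0 rose. With TMM scaling, which moved that median by -0.11, 26 fell and 2 rose. The kinesin median stood at -0.95 beside -0.011 for all features on the deposited scale, at -1.42 beside -0.48 with equal totals, at -1.05 beside -0.12 with TMM scaling and at -0.83 beside 0.041 with quantile normalisation.

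**Figure D2:**
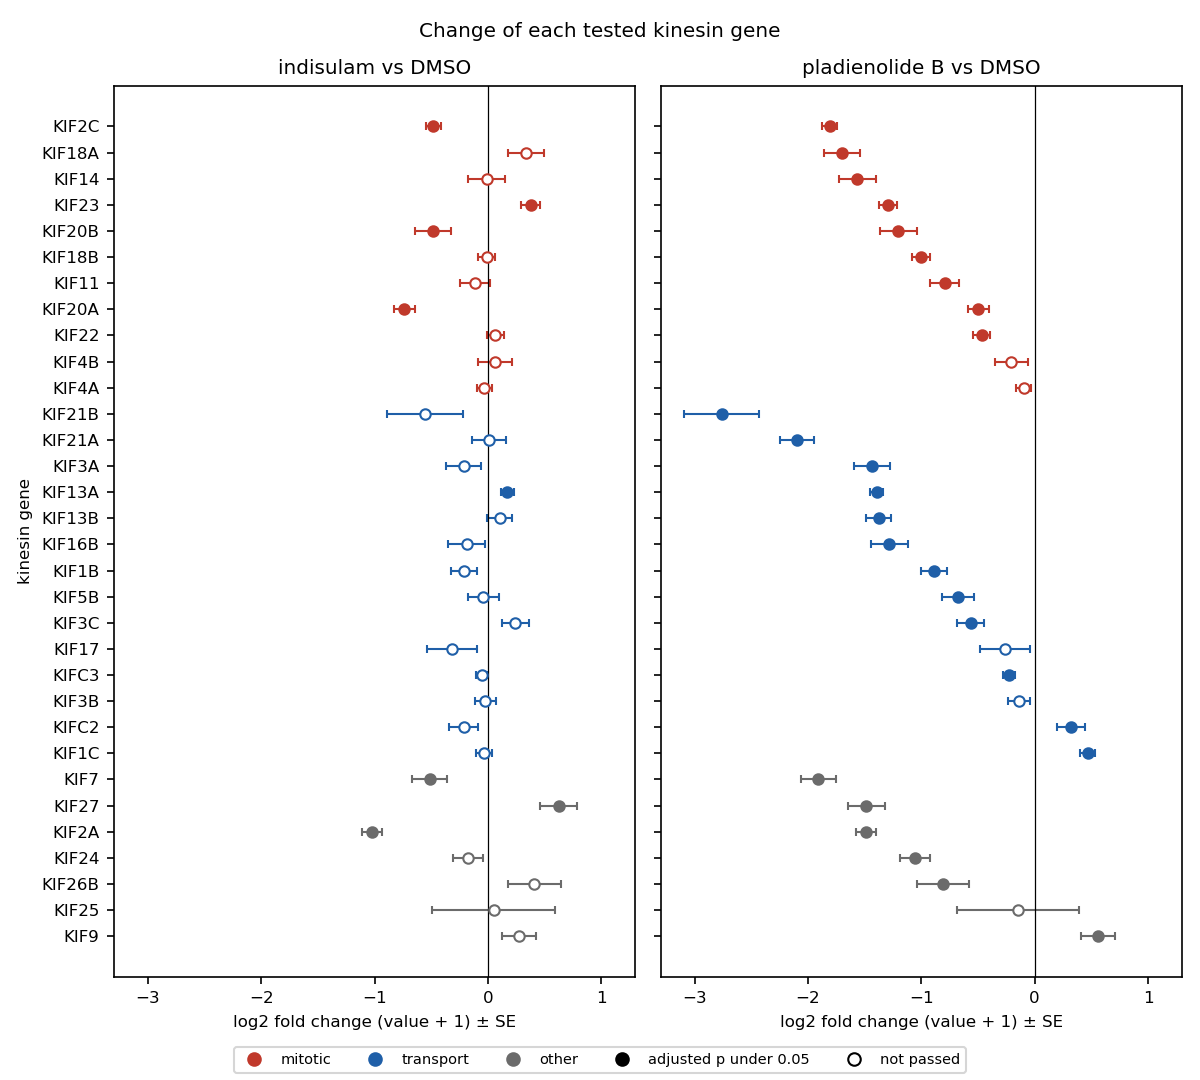
Log2 fold change of each tested kinesin gene (points; bars are 1 SE from limma on log2(value + 1)) for indisulam against DMSO (left) and pladienolide B against DMSO (right), coloured by class and filled where the adjusted p is under 0.05. With indisulam 8 of 32 points are filled and lie on both sides of 0, and with pladienolide B 24 filled points lie below 0 and 3 above it on the deposited scale (none above it with equal library totals).

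Among the mitotic motors KIF2C fell most. It had 5096, 4284 and 4725 normalised reads in pladienolide B cells, against 17029, 16192 and 16085 in DMSO cells. That is 28.6% of the DMSO mean (log2 fold change -1.81 ± 0.065 SE, adjusted p = 5.95e-11), with the highest pladienolide B library far below the lowest DMSO library.

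KIF18A (chr11:28020619-28108179) had 1664, 967 and 1606 in pladienolide B cells and 4399, 4256 and 4753 in DMSO cells (log2 fold change -1.70 ± 0.16 SE, adjusted p = 3.97e-07). KIF14 (chr1:200551497-200620751), which holds citron kinase at the midbody, had 1820.1, 1011 and 1511 in pladienolide B cells and 4388, 3809 and 4306 in DMSO cells (log2 fold change -1.56 ± 0.16 SE, adjusted p = 1.24e-06). In both genes pladienolide B replicate 2 was the lowest of all 9 libraries, and the ranges did not touch.

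KIF23 had 5386, 4572 and 6104 in pladienolide B cells and 13037, 12797 and 13342 in DMSO cells (log2 fold change -1.30 ± 0.082 SE, adjusted p = 8.86e-09). KIF11 (chr10:92593130-92655395) had 3402, 2378 and 3905 in pladienolide B cells and 5725, 5203 and 5546 in DMSO cells (log2 fold change -0.80 ± 0.13 SE, adjusted p = 9.34e-05). KIF20A had 11586, 9448 and 9551 in pladienolide B cells and 16169, 13816 and 13172 in DMSO cells (log2 fold change -0.50 ± 0.092 SE, adjusted p = 0.000268). Each of the 3 was lower in every pladienolide B library than in any DMSO library, KIF23 by the most and KIF20A by the least. CDC23, which shares 3040 bases with KIF20A, showed a log2 change of -1.07 ± 0.071 (SE).

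Of the other mitotic kinesins, KIF20B (log2 -1.20, adjusted p = 1.26e-05), the astral microtubule regulator KIF18B (log2 -1.0, adjusted p = 5.63e-08) and the chromokinesin KIF22 (log2 -0.47, adjusted p = 5.34e-05) fell. KIF4A (chrX:70290083-70561407), the chromokinesin that works with PRC1 on midzone length, did not pass, with 7469, 6476 and 6293 in pladienolide B cells and 7466, 6920.3 and 7195 in DMSO cells. These ranges overlapped (log2 fold change -0.096 ± 0.067 SE, adjusted p = 0.215), although it passed as lower with TMM scaling (adjusted p = 0.0164), equal library totals (6.5e-06), quantile normalisation (0.00122), edgeR (0.0339) and without pladienolide B replicate 1 (0.0173). KIF4B, an intronless gene whose transcript is 95.6% identical to that of KIF4A over 4343 aligned bases, had 268, 214 and 212 in pladienolide B cells and 281, 279.7 and 237 in DMSO cells (log2 -0.21, adjusted p = 0.234). It did not pass, and its change was 0.107 with quantile normalisation. Runs of 75 bases of the KIF4B transcript occurred without mismatch in that of KIF4A in 4.5% of positions, so some reads may fit both genes, and how these were counted is not given in the sources used here. DLG3, which overlaps KIF4A in the deposited coordinates over 60656 bases, showed log2 -1.47 ± 0.14 (SE).

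The transport group held the deepest falls and 2 of the 3 members that were higher on the deposited scale. KIF21A (chr12:39293228-39443390), a kinesin-4 that restrains microtubule growth at the cell cortex, had 253, 192 and 325 in pladienolide B cells and 1019.6, 1058 and 1150.4 in DMSO cells. It kept 23.9% of the DMSO mean (log2 fold change -2.09 ± 0.15 SE, adjusted p = 3.06e-08). Its relative KIF21B, at a low level, had 18.1, 12.9 and 7.61 in pladienolide B cells and 92.2, 87.5 and 85.6 in DMSO cells (log2 fold change -2.76 ± 0.33 SE, adjusted p = 5.11e-06), and was singled out after its values were seen. In both the ranges were far apart.

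KIF13A had 2298, 2149.9 and 2216 in pladienolide B cells and 5921, 5947 and 5659 in DMSO cells (log2 fold change -1.40 ± 0.058 SE, adjusted p = 1.88e-10). KIF13B, which binds the polarity protein DLG1 (log2 -1.38, adjusted p = 7.93e-08), KIF16B, a carrier of early endosomes (log2 -1.28, adjusted p = 7.76e-06), and KIF1B, a carrier of mitochondria and synaptic vesicle precursors (log2 -0.89, adjusted p = 7.18e-06), fell as well. KIF5B (chr10:32009015-32056425) had 3432, 2234 and 3524 in pladienolide B cells and 4852, 4295 and 5304 in DMSO cells (log2 fold change -0.68 ± 0.14 SE, adjusted p = 0.000576). All its pladienolide B values lay below its DMSO values, with replicate 2 the lowest.

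KIF1C (chr17:4997950-5028401), a carrier of integrins and dense-core vesicles and the kinesin with the highest values, had 34934, 40931 and 37614 in pladienolide B cells and 25816, 27471 and 28645 in DMSO cells. Every pladienolide B library was higher on the deposited scale (log2 fold change 0.47 ± 0.068 SE, adjusted p = 2.95e-05), but the change was -0.0044 with equal library totals (adjusted p = 0.954) and -0.059 with quantile normalisation (adjusted p = 0.408). KIFC2, a minus-end-directed motor described in neurons, had 1111, 1149 and 1106 in pladienolide B cells and 721, 1008 and 999.6 in DMSO cells. It was higher on the deposited scale (log2 fold change 0.32 ± 0.12 SE, adjusted p = 0.0352), turned to -0.15 with equal totals and lost the call in 8 of 19 alternatives. KIFC3, a minus-end motor at cell junctions, fell slightly (log2 -0.23, adjusted p = 0.0018).

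**Figure D3:**
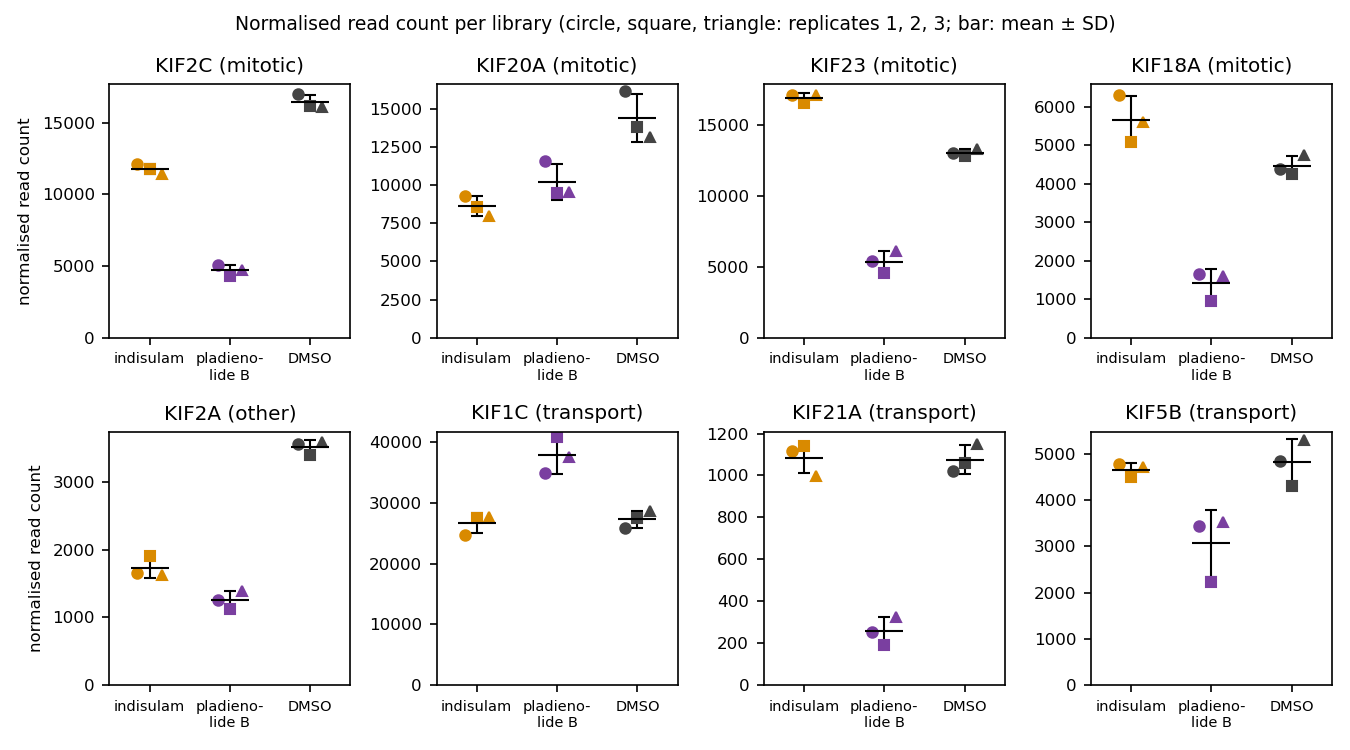
Normalised read count (vertical axes, from 0) of 8 kinesin genes in each library, by group from left to right indisulam, pladienolide B and DMSO; symbols are replicates 1 to 3 and bars show mean ± SD. KIF2C, KIF23, KIF18A and KIF21A sit lowest in pladienolide B cells, KIF20A is lowest in indisulam cells, and KIF1C is highest in pladienolide B cells on this scale (log2 -0.0044 against DMSO with equal totals).

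The heterotrimeric kinesin-2 motor, which carries cargo into cilia, is built from KIF3A with KIF3B or KIF3C and the accessory protein KIFAP3, and its subunits did not change alike. KIF3A (chr5:132692631-132737572) had 488, 281 and 355 in pladienolide B cells and 1055, 988 and 931 in DMSO cells (log2 fold change -1.44 ± 0.16 SE, adjusted p = 1.88e-06). KIF3B had 1475, 1751 and 1364 in pladienolide B cells and 1661, 1616 and 1746 in DMSO cells (log2 fold change -0.14 ± 0.094 SE, adjusted p = 0.211). KIF3A was separate and low in pladienolide B cells, while the KIF3B ranges overlapped. KIF3C fell (log2 -0.56, adjusted p = 0.000764), not with quantile normalisation (adjusted p = 0.184). KIF3B passed as lower with TMM scaling (adjusted p = 0.034), equal totals (-0.61, adjusted p = 3.45e-05) and without pladienolide B replicate 2 (-0.24, adjusted p = 0.0215). KIFAP3 had 2269.6, 1975 and 1986 in pladienolide B cells and 1466, 1565 and 1531 in DMSO cells, higher on the deposited scale (log2 fold change 0.45 ± 0.075 SE, adjusted p = 0.000112). KIFAP3 was also higher with TMM scaling (0.34, adjusted p = 0.00112) and quantile normalisation (0.62, adjusted p = 7.51e-06), and stood at -0.026 with equal totals. A feature named for IL5 and SHROOM1 overlaps KIF3A over 44942 bases and has higher values than it, and its log2 change was -1.11 ± 0.076 (SE). KIF17, a kinesin-2 that works as a homodimer, did not pass (log2 -0.26, adjusted p = 0.308).

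Among the other kinesins, KIF7 had 163, 146 and 228 in pladienolide B cells and 643, 607 and 742 in DMSO cells (log2 fold change -1.91 ± 0.16 SE, adjusted p = 1.1e-07). KIF27 had 184, 112 and 159.8 in pladienolide B cells and 387, 475 and 398 in DMSO cells (log2 fold change -1.49 ± 0.16 SE, adjusted p = 2e-06). KIF2A had 1266, 1127 and 1394 in pladienolide B cells and 3563, 3404 and 3599 in DMSO cells (log2 fold change -1.48 ± 0.089 SE, adjusted p = 5.35e-09). All 3 were lower in every pladienolide B library, and KIF27, which was higher with indisulam, was thus lower with the other drug. KIF24, which holds back cilium formation at the mother centriole, fell (log2 -1.06, adjusted p = 7.31e-06), as did KIF26B (log2 -0.81, adjusted p = 0.00677). KIF9, a motor of sperm tails and motile cilia, was higher (log2 0.56, adjusted p = 0.00458), not with equal totals (0.085, adjusted p = 0.621), and KIF25, at values of 6.08 to 24.0, did not pass (log2 -0.15, adjusted p = 0.821). Features with higher values than the kinesin overlap KIF7 (TICRR, 3080 bases, log2 0.88), KIF24 (UBAP1, 40548 bases, log2 0.29) and KIF17 (DDOST with PINK1-AS, 1393 bases, log2 0.91). KIF9-AS1 overlaps KIF9 over 18604 bases and had a log2 change of -0.85 ± 0.18 (SE) in this comparison. DIMT1, which overlaps KIF2A over 3772 bases, had a log2 change of -0.30 ± 0.12 (SE) in it, smaller than that of KIF2A.

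Between mitotic and transport kinesins, the median over the genes of a class was taken in each library, relative to each gene's DMSO mean, and the transport median was subtracted from the mitotic one. The difference was -0.283, -0.122 and -0.139 in pladienolide B libraries 1 to 3, 0.165, 0.020 and -0.027 in indisulam libraries, and 0.041, -0.044 and -0.031 in DMSO libraries. The pladienolide B values lay below those of the other groups, whereas the indisulam and DMSO values overlapped. This measure depends on the DMSO means to which each gene is set. Fitted directly against indisulam, the pladienolide B medians were -0.72 for mitotic and -0.74 for transport kinesins, a difference of 0.0245. The separation from indisulam is thus not seen in the direct comparison. The group means were -0.18 ± 0.089 for pladienolide B, 0.053 ± 0.10 for indisulam and -0.011 ± 0.046 for DMSO (SD, n = 3 each), with no test made over genes.

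From the fitted changes against DMSO, the mitotic minus the transport median was -0.2203 with pladienolide B. It was -0.103 without DMSO replicate 2 and -0.3198 with KIF2A counted as mitotic. The members of both classes were widely spread, from -1.81 to -0.096 for mitotic and from -2.76 to 0.47 for transport kinesins. With indisulam the difference was 0.037.

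**Figure D4:**
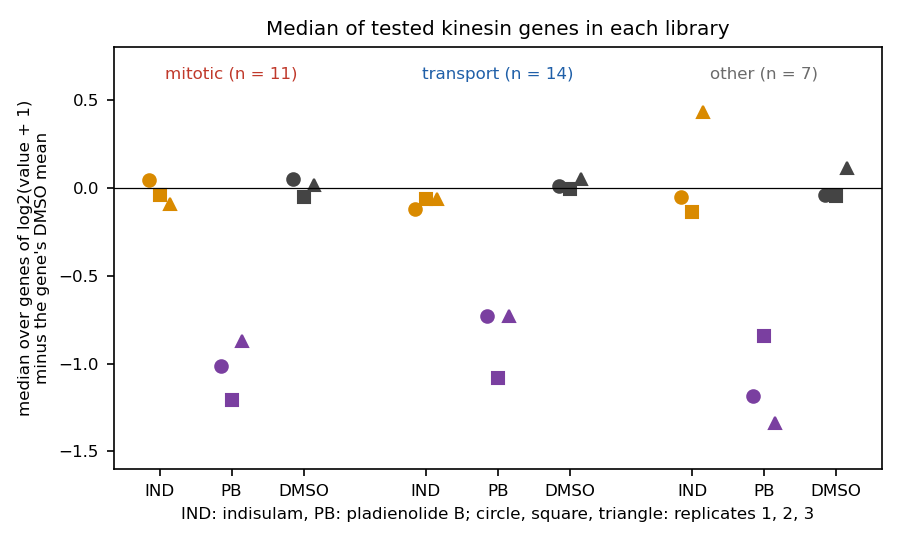
Median over the tested genes of a class of log2(value + 1) minus the gene's DMSO mean (vertical axis) in each library, for mitotic, transport and other kinesins, with groups in the order indisulam (IND), pladienolide B (PB) and DMSO. The mitotic medians of pladienolide B libraries are -1.02, -1.21 and -0.87 and the transport medians -0.73, -1.08 and -0.73, and the indisulam and DMSO medians of these 2 classes lie between -0.12 and 0.052.

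Sums over the tested genes of a class weight each gene by its reads. Mitotic kinesins summed to 48703, 39416 and 45520 normalised reads in pladienolide B cells, to 80357, 76125 and 75111 in indisulam cells and to 87772, 83010.1 and 84926 in DMSO cells. Transport kinesins summed to 54840.4, 59657 and 56604 in pladienolide B cells, to 53883, 56151 and 56277 in indisulam cells and to 54821, 56022 and 57768 in DMSO cells. The mitotic sums of pladienolide B cells lay far below those of the other groups, and the transport sums overlapped in all 3 groups. KIF1C was the largest part of each transport sum, with means of 37826 in pladienolide B cells and 27310.5 in DMSO cells. That rise was absent with equal totals (log2 -0.0044) and quantile normalisation (-0.0592). On the deposited scale 10 of 14 transport kinesins fell and 2 rose, so the overlap of the sums does not describe most members. Sums without KIF1C were not taken. As a share of all normalised reads of a library, the 32 kinesins made up 0.115 to 0.127% in pladienolide B cells, 0.213 to 0.219% in indisulam cells and 0.234 to 0.245% in DMSO cells. Here the transport share was lower with pladienolide B too, at 0.0651 to 0.0687% beside 0.0898 to 0.0956% in DMSO cells.

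Pladienolide B replicate 2 was the lowest of its group in 17 of the 32 tested kinesins (53.1%), beside 31.7% of all tested features. Its median deviation from the mean of the other 2 pladienolide B libraries was -0.14 over kinesins and -0.20 over mitotic kinesins. It was 0.058 over transport kinesins and 0.027 over all features. The transport median relative to the DMSO means was nevertheless lowest in replicate 2, at -1.08 beside -0.73 in replicates 1 and 3, so the 2 summaries differ for this class. Without this library 25 kinesins fell and 2 rose against DMSO, and KIFC2 lost the call (adjusted p = 0.0758).

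The genes that work with these motors, listed as 18 partners and regulators of mitotic kinesins and 19 light chains and adaptors of transport kinesins, were all tested. With indisulam 3 mitotic partners rose and 6 fell (median 0.019), and 1 transport partner rose and 6 fell (median -0.20), beside 14.5% of all tested features that rose and 12.4% that fell (median 0.047). With pladienolide B 1 mitotic partner rose and 15 fell (median -0.63), and 1 transport partner rose and 14 fell (median -0.47), beside 34.3% of all tested features that rose and 35.5% that fell (median -0.011).

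RACGAP1, which forms centralspindlin with KIF23, fell with pladienolide B by a like amount to its partner: it had 5785, 5287 and 5378 in pladienolide B cells and 13532, 12958 and 12481 in DMSO cells (log2 fold change -1.24 ± 0.059 SE, adjusted p = 6.63e-10). With indisulam it did not pass (log2 0.099, adjusted p = 0.242), while ECT2, the RhoA exchange factor that RACGAP1 binds, fell (log2 -0.63, adjusted p = 0.00221). The chromosomal passenger complex, cargo of KIF20A, split by subunit. CDCA8 (borealin) had 1699, 1429 and 1738 in pladienolide B cells and 7515, 7681 and 7369 in DMSO cells (log2 fold change -2.22 ± 0.073 SE, adjusted p = 3.72e-11), and INCENP fell as well (log2 -1.08, adjusted p = 3.54e-09). The kinase AURKB had 8016, 8359.9 and 7639.7 in pladienolide B cells and 7219, 7749.6 and 7388 in DMSO cells with overlapping ranges (log2 fold change 0.10 ± 0.058 SE, adjusted p = 0.127), and passed as lower with equal totals (-0.37, adjusted p = 2.16e-05) and quantile normalisation (-0.13, adjusted p = 0.0329). BIRC5 (survivin) was the mitotic partner called as higher (log2 0.16, adjusted p = 0.0367), and it too turned to -0.31 with equal totals and -0.35 with quantile normalisation. CDCA8 and INCENP kept their direction and call under these scalings.

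Other mitotic partners that fell with pladienolide B were AURKA, the spindle pole kinase (log2 -1.86, adjusted p = 2.59e-11), KNSTRN, a kinetochore protein (log2 -2.01, adjusted p = 1.12e-10), and CENPE, a kinesin of kinetochores whose symbol lies outside the naming pattern (log2 -1.73, adjusted p = 0.000108). PRC1, the partner of KIF4A, fell little (log2 -0.24, adjusted p = 0.00939). Of the transport partners, MADD, which links KIF1-type motors to RAB3 vesicles, had the largest fall. It had 1649, 1644 and 1679 in pladienolide B cells and 8940.0, 9114 and 8846 in DMSO cells, with no overlap (log2 fold change -2.43 ± 0.053 SE, adjusted p = 3.76e-12). The mitochondrial adaptor RHOT1 (log2 -1.05, adjusted p = 5.11e-06), the kinesin-binding protein KIFBP (log2 -1.0, adjusted p = 5.48e-08) and the light chains KLC1 (log2 -0.76, adjusted p = 2.2e-08) and KLC2 (log2 -0.94, adjusted p = 5.59e-08) fell as well.

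Gene structure varied widely among the members, and with pladienolide B the median fall was larger in longer kinesin genes. The 11 tested kinesins that span at least 80 kb in GENCODE v29 had a median log2 change of -1.38, the 15 of 30 to 80 kb -0.80 and the 6 under 30 kb -0.48. Over all protein-coding genes tested the medians of the same bins were -0.32 (3055 genes), -0.19 (3461) and 0.12 (5754), so kinesins lay lower in each bin. As a description across genes, which are not independent, Spearman's rho between span and change was -0.30 over 32 kinesins and -0.23 over 12270 protein-coding genes. With the number of introns it was -0.34 over kinesins and -0.22 over protein-coding genes. KIF20A packs 19 introns into 9.0 kb and fell less than the median kinesin, and KIF4A, at 131 kb with 30 introns, did not pass. The deposited coordinates span more than GENCODE for KIF4A (271.3 kb) and KIF24 (117.3 beside 58.99 kb). They span less for KIF2A (84.82 beside 231.09 kb) and KIF7 (27.49 beside 46.66 kb). On the deposited spans KIF24 and KIF7 would fall in other bins, and the medians were not taken on those spans.

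**Figure D5:**
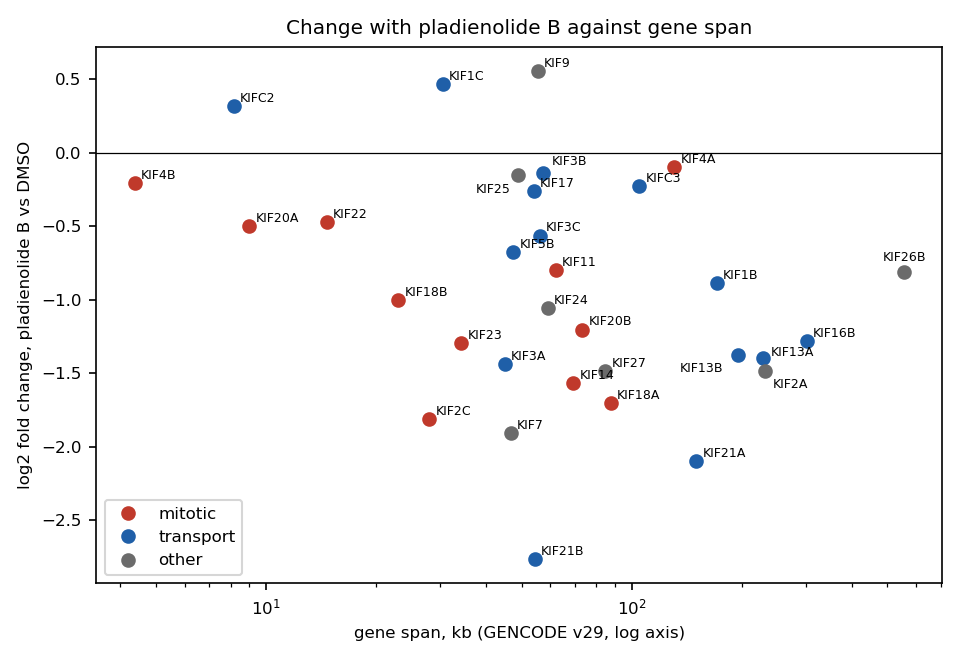
Log2 fold change with pladienolide B against DMSO (vertical axis) against gene span in kb (GENCODE v29, log axis) for the 32 tested kinesins, coloured by class. Changes of genes under 30 kb lie between -1.81 and 0.32 and those of genes of at least 80 kb between -2.09 and -0.10.

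Set against each other, the drugs differed in most kinesins: 23 of 32 were lower and 3 higher in pladienolide B than in indisulam cells, and 6 did not pass. Over all tested features 35.6% were lower and 34.7% higher (70.3% either way). The difference was at least 2-fold and lower in 13 members, beside 18.4% of all features. The values of the groups were separate and lower in 23 members and higher in 4, beside 36.2% and 35.6% of all features. Among mitotic kinesins 8 of 11 were lower and 1 higher, and among transport kinesins 10 of 14 were lower and 2 higher. The medians were -0.72 for mitotic and -0.74 for transport kinesins, a difference of 0.024 that became -0.2226 with quantile normalisation, 0.1579 without pladienolide B replicate 2 and -0.1302 without pladienolide B replicate 3. Both drugs were compared with the same DMSO libraries, so their changes against DMSO share those values.

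Among members with a mean of at least 100, the largest differences were in KIF27 and KIF21A. KIF27 had 184, 112 and 159.8 in pladienolide B cells and 667, 649 and 623 in indisulam cells (log2 fold change -2.11 ± 0.16 SE, adjusted p = 6.44e-08). KIF21A had 253, 192 and 325 in pladienolide B cells and 1116, 1139.5 and 999 in indisulam cells (log2 fold change -2.11 ± 0.15 SE, adjusted p = 3.11e-08). In each, all pladienolide B libraries lay below all indisulam libraries. KIF18A had 1664, 967 and 1606 in pladienolide B cells and 6316, 5083 and 5597 in indisulam cells (log2 fold change -2.04 ± 0.16 SE, adjusted p = 6.97e-08), and KIF23 had 5386, 4572 and 6104 in pladienolide B cells and 17100.1, 16592 and 17111 in indisulam cells (log2 fold change -1.67 ± 0.082 SE, adjusted p = 8.73e-10). These mitotic motors were separate by wide gaps too.

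On the deposited scale 3 members were higher in pladienolide B cells. KIF1C had 34934, 40931 and 37614 in pladienolide B cells and 24791, 27570.3 and 27682 in indisulam cells (log2 fold change 0.50 ± 0.068 SE, adjusted p = 1.47e-05). KIFC2 had 1111, 1149 and 1106 in pladienolide B cells and 685, 835 and 809.8 in indisulam cells (log2 fold change 0.54 ± 0.12 SE, adjusted p = 0.00165). KIF20A had 11586, 9448 and 9551 in pladienolide B cells and 9281, 8543 and 7971 in indisulam cells (log2 fold change 0.24 ± 0.092 SE, adjusted p = 0.031). The groups were separate in each of the 3, and with equal library totals none of them passed as higher and KIF20A turned to -0.18. KIF20A also lost the call with TMM scaling (adjusted p = 0.109) and edgeR (0.0604), and KIF1C with quantile normalisation (0.976).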

How the data were processed

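The deposited values are a signal, the authors' read counts scaled by DESeq2 size factors, per the table's name and the submitters' processing notes, which also list FastQC, Picard, SAMtools, STAR 2.7.5a and hg38. For the counting step, neither tool nor strand setting is given in the sources used here. Libraries were made with a strand-specific kit, per the labels' protocols. Whole read counts were recovered from the deposited values (100% of them whole within 0.01).

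Values were transformed to log2(value + 1), and all 9 libraries entered 1 two-sided limma fit with a mean-variance trend (limma 3.58.1 in R 4.3.3), with Benjamini-Hochberg adjustment over the 16846 of 46846 features with a mean of at least 10. Fold changes on this scale understate changes of low genes. edgeR 4.0.16 and DESeq2 1.42.0 on recovered reads, other scalings, a pseudocount of 5, a mean of at least 50 or no filter, a replicate block and leaving out each library were alternatives. The fit was also run on simulated counts in which few features changed, as many up as down, with the outcome not given here. With pladienolide B against DMSO limma called 69.8% of tested features, so that simulation does not bear on the scaling there.

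The members and lists were chosen with earlier results of these data known. Values per library are given for the 8 members with the largest change per drug (adjusted p under 0.05, mean of at least 100), the 4 largest differences per direction between the drugs, the highest member of each class, and KIF11, KIF23, KIF20A, KIF5B and KIF3A, plus members set beside them after their values were seen. Promoters came from RefSeq (GRCh38.p14) and gene structure from GENCODE v29. Libraries of a group all differed by more than sampling noise (lowest chi-square per feature 8.63).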

Additional observations from a re-analysis of the deposited data

How the results depend on the processing

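With indisulam against DMSO, 4 of 8 called kinesins (KIF2A, KIF20A, KIF2C and KIF23) kept their call under all 19 alternatives. Of 3 higher and 5 lower members, leaving out 1 library gave 1 to 4 higher, with 1 without DMSO replicate 1, and 3 to 5 lower, with 3 without DMSO replicate 3, indisulam replicate 1 or indisulam replicate 2. With pladienolide B, 23 of 27 calls against DMSO and 23 of 26 against indisulam were kept under all of them. With equal library totals, 0 members were higher against DMSO and 0 against indisulam (3 each on the deposited scale). By that scaling and by quantile normalisation KIF1C against DMSO turned to -0.0044 and -0.0592 and KIF20A against indisulam to -0.1763 and -0.0203, and KIFC2 against DMSO turned to -0.1534 with equal totals. Equal totals change the level to which a library is set, whereas quantile normalisation gives all libraries the same distribution of values. The cause of these turns was not tested.

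The mitotic minus transport median ran from -0.2846 to -0.103 over the omissions of 1 library with pladienolide B against DMSO (-0.3198 with KIF2A counted as mitotic). Against indisulam it ran from -0.1302 to 0.1579, and it was -0.2226 with quantile normalisation, so it has no settled sign there.

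Replicate numbers paired libraries only in part: correlations of same-numbered libraries were 0.003 to 0.128, with 3 of 9 over 0.1, and 7 of 9 libraries correlated best with their own number. Correlations of differently numbered libraries were -0.124 to 0.045, with 0 of 18 over 0.1. The main fit took no account of this pairing. With the replicate block 5 members were higher and 5 lower with indisulam, where KIF18A (adjusted p = 0.0204) and KIF3C (0.036) joined the calls, 3 higher and 24 lower with pladienolide B against DMSO, and 3 higher and 23 lower against indisulam. Depth limits KIF25, KIF21B and KIF17 most, and the 7 untested members cannot be compared at this depth.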
